A study of Mus musculus with 2 samples.

Results

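Osteopontin, encoded by Spp1, and CD44, a cell surface receptor for osteopontin and hyaluronan, were read in single cells recovered from scaffolds implanted into a skull defect of mice. They are 2 of the 32285 genes in the deposited matrices. The pair was chosen by gene symbol and selected on measured values of these data: in macrophages and monocytes both genes had stood higher with the Gel50_CS50 scaffold than with the Gel100 scaffold, and in stromal cells Cd44 had stood lower. Those differences are therefore given below as descriptions, with no test. Each group was 1 library: Gel50_CS50 and then Gel100, each made from cells pooled over 5 mice. All mice were female Balb/c animals aged 6 weeks whose 3.5 mm skull defect had been filled with a scaffold that carried no cells, and all were sampled at week 1. Before about 10000 viable sorted cells per group were loaded for droplet sequencing, the scaffolds were digested with Liberase, chondroitinase and hyaluronidase and red blood cells were lysed. The sources used here do not spell out the scaffold names. With 1 library per scaffold there was no replicate and no test between scaffolds, and mice within a pool were not told apart.

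Osteopontin is an acidic phosphoglycoprotein of bone matrix that binds integrins through an RGD motif, and it is also secreted by macrophages, activated T cells and NK cells. CD44 is the main receptor for hyaluronan on leukocytes and mesenchymal cells, where it mediates adhesion and migration, and it exists in a standard form and in splice variants. Osteopontin is known in bone for anchoring osteoclasts to mineral and for restraining crystal growth, and in wounds and around implants for marking lipid-handling and foreign-body macrophages.

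In the mm10 build of the mouse genome, Spp1 (ENSMUSG00000029304) lies on the plus strand of chromosome 5 from 104435118 to 104441050, and Cd44 (ENSMUSG00000005087) lies on the minus strand of chromosome 2 from 102811141 to 102901665. GENCODE vM21 lists 7 protein-coding transcripts of Spp1, with 4 to 8 exons, and 8 of Cd44, with 9 to 19 exons. The counts come from the 3′ end of transcripts and are summed per gene, so the standard and variant forms of Cd44 were not told apart. The promoters of both genes are shown because these genes were spread very differently over macrophages and monocytes. In that class most Spp1 counts came from few cells, while Cd44 was detected in nearly all. The windows run from 250 bases before to 50 bases after the RefSeq start in GRCm38.p6, at chr5:104434861-104435160 on the plus strand and chr2:102901616-102901915 on the minus strand. Capitals mark matches on either strand to 3 motifs that were searched: ACCACA (the core bound by RUNX factors), GGAAGT (bound by ETS factors) and TGANTCA (bound by AP-1).
Spp1: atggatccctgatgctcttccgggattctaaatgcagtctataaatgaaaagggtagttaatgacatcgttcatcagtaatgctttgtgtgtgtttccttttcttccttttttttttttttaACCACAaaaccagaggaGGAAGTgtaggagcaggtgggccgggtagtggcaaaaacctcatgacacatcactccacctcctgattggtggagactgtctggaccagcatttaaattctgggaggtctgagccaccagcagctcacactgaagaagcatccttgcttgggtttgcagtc
Cd44: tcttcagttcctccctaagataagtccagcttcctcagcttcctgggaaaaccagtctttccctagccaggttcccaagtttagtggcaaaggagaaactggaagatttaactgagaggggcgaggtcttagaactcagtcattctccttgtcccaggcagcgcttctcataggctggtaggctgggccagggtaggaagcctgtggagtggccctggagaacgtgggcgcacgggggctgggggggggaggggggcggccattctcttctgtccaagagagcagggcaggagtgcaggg
In the Spp1 window ACCACA began at base 123 and GGAAGT at base 140, 1 match each, and TGANTCA had 0 matches. The Cd44 window had 0 matches to any of the 3. Among 32851 mouse promoter windows of the same length, 16.8% held ACCACA, 23.8% GGAAGT and 7.81% TGANTCA, and these matches are a description of letters, with no binding measured.

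After filtering, 7206 cells of the Gel50_CS50 and 7570 cells of the Gel100 library remained, with a median of 16506.5 and 12716 transcript counts (unique molecular identifiers, UMIs) per cell. The libraries shared 24 barcode sequences. Cells were clustered without Spp1, Cd44 and 51 listed pathway genes, and classes were named from marker genes, so each name means cells like that type. Levels are counts per 1000000 (CPM), from counts summed over the cells of a class. All intervals are exact at 95% and cover counting error alone, so they say nothing of the variation among animals. Macrophages and monocytes numbered 3342 cells in Gel50_CS50 and 3391 in Gel100. Different clusters held most of this class: the Cd5l Pf4 Mrc1 cluster (32.0%) and the Stfa3 Arg1 Cxcl3 cluster (25.8%) led in Gel50_CS50, and the interferon-type Ifit1bl1 Slamf7 Ccl12 cluster (39.0%) led in Gel100. Cells under 3000 UMIs numbered 325 in Gel50_CS50 and 1625 in Gel100.

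Spp1 was highest in macrophages and monocytes and next highest in stromal cells in both libraries. In macrophages and monocytes it stood at 1306 CPM (1298 to 1315) in Gel50_CS50 and 683 CPM (676 to 689.6) in Gel100, and in stromal cells at 515 and 591 CPM. Neutrophils had 215 CPM in Gel50_CS50 (204 to 226), where they came next, and 312 CPM in Gel100 (291.5 to 334). T and NK cells, joined, had 58.1 CPM in Gel50_CS50, below neutrophils, and 362 CPM in Gel100 (351 to 374), above them, and conventional dendritic cells had 28.3 and 34.4 CPM. The lower classes also differed in order: plasmacytoid dendritic cells were lowest in Gel50_CS50 at 14.97 CPM and stood at 130 CPM in Gel100, level with endothelial cells at 131 CPM. In Gel50_CS50, T and NK cells and endothelial cells (57.6 CPM) had overlapping intervals, and so did endothelial and plasmacytoid dendritic cells in Gel100. Endothelial cells were few (52 in Gel50_CS50 and 65 in Gel100) and unlike in depth, with medians of 19376.5 and 2094 UMIs. The endothelial cell with the most Spp1 in Gel50_CS50 held 73.6% of the counts of that class. Without the top cell of each library the endothelial levels were 17.5 and 101 CPM. Macrophages and monocytes held 73.3% of all Spp1 counts in Gel50_CS50 and 67.6% in Gel100, and stromal cells held 15.9% and 11.3%.

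Lymphocytes with little Spp1 serve as a comparison for low values, since free RNA, which was not measured here, can leave counts in any droplet. Conventional T cells (Themis Lef1 Cd3d cluster) had 24.1 CPM in Gel50_CS50 (15.5 to 35.9) and 29.1 CPM in Gel100 (21.7 to 38.2), and after thinning every cell to 3000 UMIs 5.77% and 5.82% of them held an Spp1 count (19.05% and 15.02% unthinned, median 8946 and 7537 UMIs). Gamma-delta T cells had 21.6 and 26.6 CPM. Spp1 levels and shares at or below these are not read as expression. For each count of the macrophage complement genes C1qa, C1qb and C1qc, T cells held 0.453 Spp1 counts in Gel50_CS50 and 0.547 in Gel100, against 0.636 and 0.292 in macrophages and monocytes. Neutrophils held 2.44 and 2.72 Spp1 counts per C1q count, and stromal cells 10.49 and 10.8. Single macrophage and monocyte clusters ran from 0.019 (Fcrls Cxcl13 C1qa, Gel100) to 5.51 (Chil3 Ccr2 F13a1, Gel50_CS50). The neutrophil values lie inside that range, so this ratio cannot tell their own Spp1 from macrophage RNA, and the source was not tested.

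**Figure D1:**
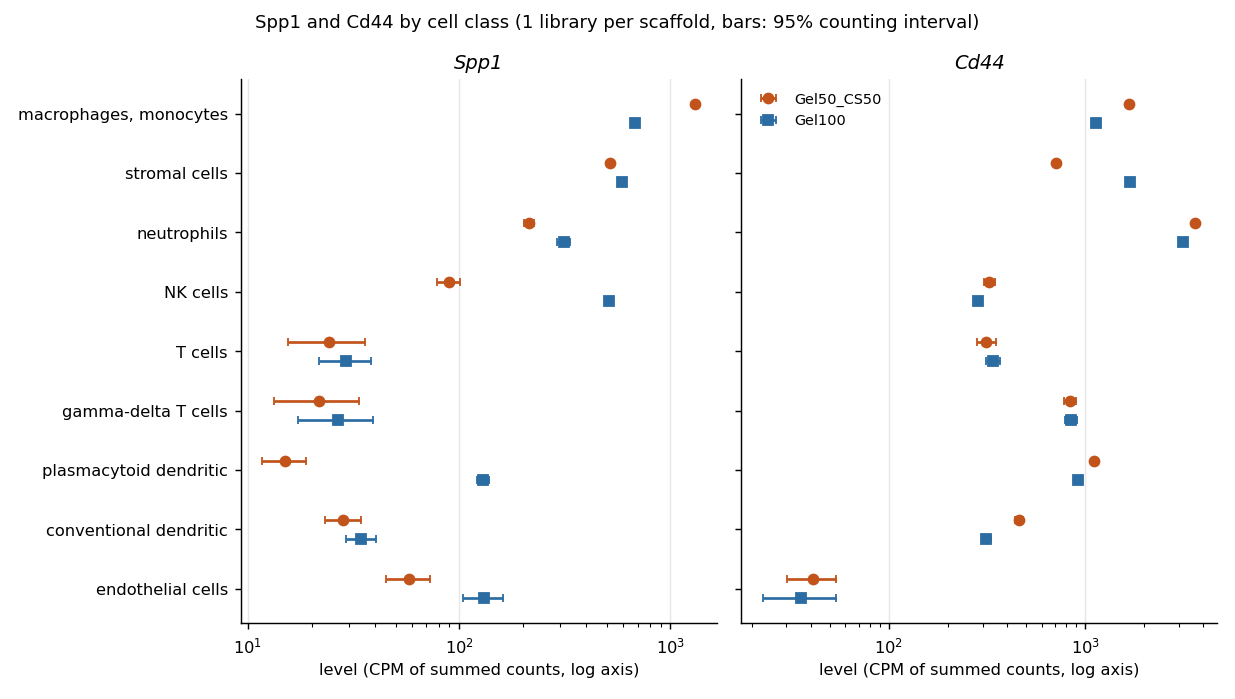
Levels of Spp1 (left) and Cd44 (right) by cell class, in CPM of summed counts on a log axis, with Gel50_CS50 as circles above Gel100 as squares and bars for the 95% counting interval. Spp1 is highest in macrophages and monocytes (1306 and 683 CPM), and Cd44 in neutrophils (3614 and 3166 CPM).

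Within the macrophages and monocytes, Spp1 was highest in the cluster led by Gpnmb, Syngr1 and Apoe, genes of lipid-laden and foreign-body macrophages. It reached 5871 CPM there in Gel50_CS50 (5816 to 5927) and 4609.9 CPM in Gel100 (4544 to 4677). This cluster was 4.62% of the Gel50_CS50 and 2.75% of the Gel100 cells but held 35.4% and 32.0% of each library's Spp1 counts. Among macrophage states scored by marker genes, it scored highest for the resident type (4.12), with 2.90 for the foreign-body type. Next for Spp1 in Gel50_CS50 came the Cd5l Pf4 Mrc1 cluster with 1537 CPM, against 592 CPM in Gel100. That cluster too scored highest for the resident type (3.94), with 2.57 for the foreign-body type. The interferon-type Ifit1bl1 Slamf7 Ccl12 cluster had 726 CPM in Gel50_CS50 and 462 CPM in Gel100, and the Chil3 Ccr2 F13a1 monocyte cluster had 553 and 684.5 CPM. Lower levels were seen in the Cxcl10 Rsad2 Ifit2 cluster (314 and 197 CPM) and the Stfa3 Arg1 Cxcl3 cluster (248 and 242 CPM). The lowest were in the C1q-rich Fcrls Cxcl13 C1qa cluster, at 187 CPM in Gel50_CS50 and 104.5 CPM in Gel100. The unnamed Retnla Mgl2 H2-Eb1 cluster, which scored almost equally for macrophages and dendritic cells, had 172 and 179 CPM. Osteoclast-like cells led by Ctsk and Atp6v0d2 had 164 CPM in Gel50_CS50 (16 cells) and 154 CPM in Gel100 (4 cells). A further 19 cells led by Spp1 and Gpnmb stayed unnamed and outside the class. They had 30564 CPM in Gel50_CS50 (5 cells, median 47121 UMIs) and 43817 CPM in Gel100 (14 cells, median 1277 UMIs).

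**Figure D2:**
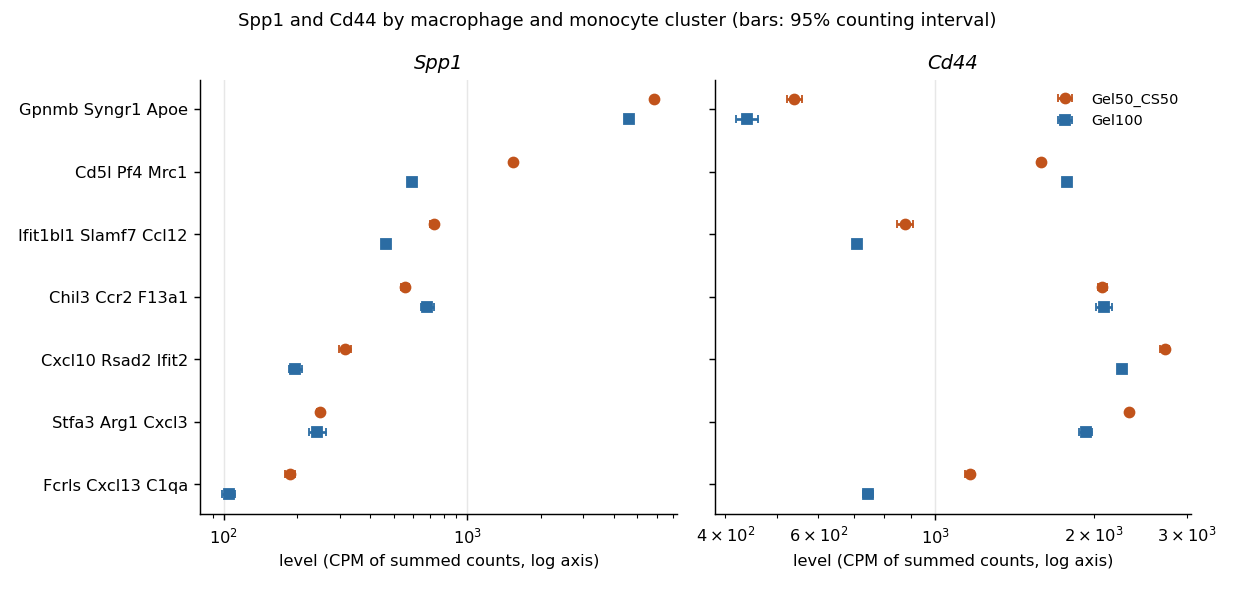
Levels of Spp1 (left) and Cd44 (right) in the 7 macrophage and monocyte clusters, named by leading genes, in CPM of summed counts on a log axis with 95% counting intervals, Gel50_CS50 as circles above Gel100 as squares. The Gpnmb Syngr1 Apoe cluster has the highest Spp1 (5871 and 4609.9 CPM) and the lowest Cd44 (540.5 and 439.5 CPM).

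Few cells held most of the osteopontin transcript. In macrophages and monocytes the 34 cells with the most Spp1 counts, 1% of the class, held 58.9% of its Spp1 counts in Gel50_CS50 and 51.1% in Gel100, and the top 10% of cells held 93.8% and 89.4%. The median cell had 38.3 CPM of Spp1 in Gel50_CS50 and 0 in Gel100, while the 99th percentile was 20660.2 CPM in Gel50_CS50 and 11588 CPM in Gel100. At most, a single macrophage held 4694 Spp1 counts of 86168 UMIs in Gel50_CS50, which is 5.45% of its transcripts, and 2472 of 42433 UMIs in Gel100. For Cd44 the top 1% of the class held 6.88% of the counts in Gel50_CS50 and 7.16% in Gel100. The summed Spp1 level of macrophages and monocytes is therefore set by few cells. Its counting intervals are narrower than the change that leaving out those cells makes.

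**Figure D3:**
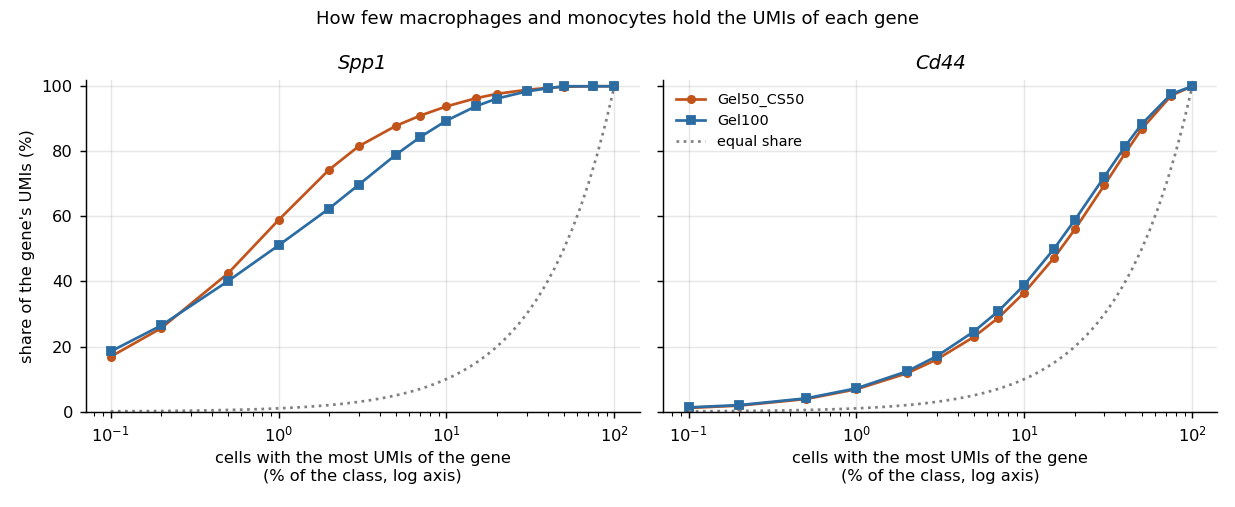
Share of all Spp1 counts (left) and Cd44 counts (right) of macrophages and monocytes that is held by the cells with the most counts of that gene, against the percentage of the class taken on a log axis, with a dotted line for an equal share. The top 1% of cells hold 58.9% of Spp1 in Gel50_CS50 and 51.1% in Gel100, but 6.88% and 7.16% of Cd44.

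Between scaffolds, summed Spp1 in macrophages and monocytes was 1.91-fold higher in Gel50_CS50, a log2 ratio of 0.94 (0.92 to 0.95). Its whole interval lay above 1.5-fold, as it did for 2.35% of the 6096 genes measured in this class at a mean of at least 20 CPM, while 4.2% lay wholly below. The log2 ratio was 0.49 when each cell counted equally, 0.73 with cells thinned to 3000 UMIs and 0.69 without the top 1% of cells of each library, where the levels were 549 CPM in Gel50_CS50 and 341 CPM in Gel100. It was 0.64 when every cluster had equal shares of the class in both libraries. An Spp1 count was found in 54.1% of these cells in Gel50_CS50 and 47.4% in Gel100 (median 18878 and 16303 UMIs), and in 27.2% and 25.1% after thinning, so the share of cells with the transcript differed less than its summed level. The Cd5l Pf4 Mrc1 cluster had the highest summed ratio of the 7, at 1.38 (1.34 to 1.41), where 0.967% of genes lay wholly above 1.5-fold, and the ratio was 0.60 when each cell counted equally, 0.89 with thinned cells and 1.06 without its top 1% of cells. The Gpnmb Syngr1 Apoe cluster had 0.35 (0.32 to 0.37), with 0.06 when each cell counted equally, 0.21 with thinned cells and 0.36 without its top 1% of cells. Its median cell was lower in Gel50_CS50, at 118 CPM against 377 CPM in Gel100. After thinning, 45.3% of its cells in Gel50_CS50 and 52.9% in Gel100 held an Spp1 count. In the Chil3 Ccr2 F13a1 cluster, Spp1 was lower in Gel50_CS50 as summed (-0.31) and higher without the top 1% of cells (1.35), since 1 Gel100 cell held 77.4% of the Spp1 counts of that cluster.

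Spp1 differed in the other direction in NK cells, the lymphocytes that kill without prior priming. Their level was 89.1 CPM in Gel50_CS50 (78.7 to 101, 241 cells) and 511 CPM in Gel100 (495 to 528, 660 cells), a log2 ratio of -2.52 (-2.71 to -2.34). The share of genes measured in NK cells that lay wholly below 1.5-fold was 1.03%. At least 10 Spp1 counts were found in 2.49% of NK cells in Gel50_CS50 (6 cells, 0.919 to 5.34%) and in 9.39% in Gel100 (62 cells, 7.28 to 11.9%). With cells thinned to 3000 UMIs, 10.4% and 23.6% held an Spp1 count (29.9% and 37.0% unthinned), against 5.77% and 5.82% of T cells, and the median NK cell had 10421 and 9089.5 UMIs against 8946 and 7537 in T cells. The ratio was -2.61 with thinned cells and -2.31 without the top 1% of cells. All 9 NK subclusters with Spp1 counts in both libraries were lower in Gel50_CS50, from -1.16 to -3.51. The subcluster led by Gzmd, Gzmg and Gzmf, granzymes of activated killer cells, was highest in Gel100 with 2082 CPM (1977 to 2192, 58 cells), against 184 CPM in Gel50_CS50 (138 to 239, 22 cells).

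Some macrophage transcripts in NK cells also stood lower in Gel50_CS50. Summed C1qa, C1qb and C1qc stood at 29.8 CPM in NK cells of Gel50_CS50 and 75.9 CPM in those of Gel100. All 11 macrophage markers had counts in both, summing to 290 and 426 CPM. Apoe and Lyz2 differed less, at 203 and 289 CPM in Gel50_CS50 and 221 and 333 CPM in Gel100. In NK cells with no C1q count, Spp1 was 103 CPM in Gel50_CS50 (171 cells) and 411 CPM in Gel100 (421 cells), a log2 ratio of -2.00. At least 10 Spp1 counts were found in 2.92% of these cells in Gel50_CS50 (0.956 to 6.69%) and 7.36% in Gel100 (5.06 to 10.3%), and these intervals overlap. Per C1q count NK cells held 2.99 and 6.74 Spp1 counts, above T cells in the same libraries. The Chil3 Ccr2 F13a1 monocyte cluster held 5.51 in Gel50_CS50 and 3.76 in Gel100. The Gel100 NK cell with the most Spp1, 576 counts of 65298 UMIs, held 65 counts of the leukocyte gene Ptprc, 3 of the NK receptor gene Ncr1 and 0 of C1qa. NK cells had a median of 9261 UMIs over both libraries. A cell without C1q counts can still hold macrophage RNA, since the Gel50_CS50 macrophage with the most Spp1 also held 0 counts of C1qa. The part of macrophage RNA or of doublets in the NK values was not tested.

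**Figure D4:**
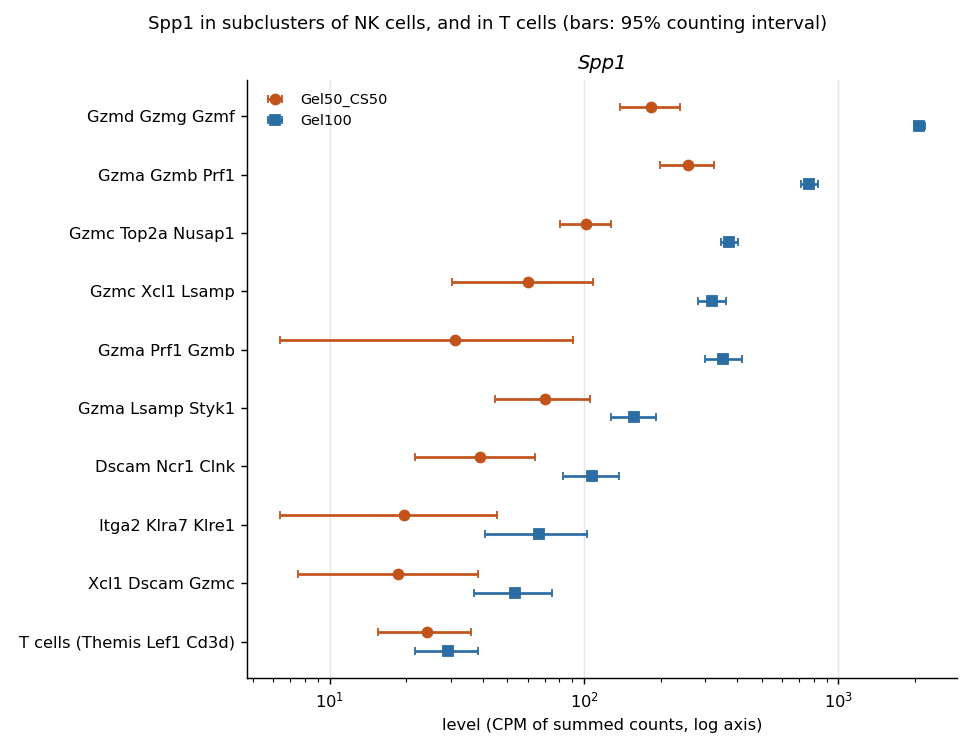
Spp1 level in 9 NK subclusters with at least 10 cells in each library and in T cells, named by leading genes, in CPM of summed counts on a log axis with 95% counting intervals, Gel50_CS50 as circles above Gel100 as squares. Every NK subcluster lies lower in Gel50_CS50, and the Gzmd Gzmg Gzmf subcluster shows the highest level in Gel100 (2082 CPM).

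In neutrophils the Spp1 log2 ratio was -0.54 (-0.66 to -0.42), with part of the interval inside 1.5-fold, and 5.58% of genes lay wholly below it. In plasmacytoid dendritic cells, 1 Gel100 cell with 639 of the 983 Spp1 counts also held 161 counts of C1qa and 872 of Apoe beside 38 of the class marker Siglech. Without the top 1% of cells, Spp1 stood at 13.7 CPM in Gel50_CS50 and 13.4 CPM in Gel100, both below the T cell levels, so the summed ratio of -3.12 rests on single cells, in a class where 0.534% of genes lay wholly below 1.5-fold. Pericytes and smooth muscle cells had 467.5 CPM in Gel50_CS50 (52 cells) and 35.3 CPM in Gel100 (28 cells), and 1 Gel50_CS50 cell held 63.6% of the counts.

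Stromal cells, named from collagen and other mesenchymal markers, showed no single direction for Spp1. Their summed level was 515 CPM in Gel50_CS50 (653 cells) and 591 CPM in Gel100 (232 cells), a log2 ratio of -0.20 (-0.24 to -0.16). In Gel100, 1 cell of 71896 UMIs held 2995 of the 6486 Spp1 counts, along with 395 counts of Col1a1, 1 of Ptprc and 1 of C1qa. Without the top 1% of cells the levels were 428 CPM in Gel50_CS50 and 208 CPM in Gel100, a ratio of 1.04. It was 0.11 when each cell counted equally and 0.20 with thinned cells. Spp1 was read in 77.9% of stromal cells in Gel50_CS50 and 62.1% in Gel100 (median 53987 and 48145.5 UMIs), and in 39.2% and 27.0% after thinning.

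The main stromal clusters differed from each other. In the cluster led by Col11a1, Eln and Fmod, matrix genes of tendon-like and fibrous tissue, Spp1 stood at 830 CPM in Gel50_CS50 and 1309 CPM in Gel100, a ratio of -0.66 (-0.70 to -0.62) that became 0.55 without the top 1% of cells. The share of genes wholly below 1.5-fold there was 2.35%. In the cluster led by Clec3b, Dpt and Pi16, genes of adventitial fibroblasts, Spp1 stood at 205 CPM in Gel50_CS50 (198 to 211, 314 cells) and 33.5 CPM in Gel100 (29.1 to 38.4, 114 cells). That ratio of 2.61 (2.41 to 2.82) was 2.48 when each cell counted equally, 3.09 with thinned cells and 2.48 without the top 1% of cells, and 1.27% of genes lay wholly above 1.5-fold. The Gel100 level of this cluster overlaps the interval of T cells in that library, with 0.638 Spp1 counts per C1q count, against 3.89 in Gel50_CS50. In these cells summed C1q was 52.7 CPM in Gel50_CS50 and 52.5 CPM in Gel100, while all 11 macrophage markers had counts and summed to 568 and 348 CPM. Of genes that macrophages express highly, Apoe stood at 367 CPM in Gel50_CS50 and 158 CPM in Gel100, and Lyz2 at 567 and 289 CPM, in the same direction as Spp1. Their part in the Spp1 ratio was not tested.

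Cd44 was detected in nearly every neutrophil (97.2% in Gel50_CS50 and 96.4% in Gel100), macrophage and monocyte (98.4% and 95.2%). In both libraries it was highest in neutrophils, at 3614 CPM in Gel50_CS50 (3569 to 3660) and 3166 CPM in Gel100 (3100 to 3234). After that the order was not the same. Macrophages and monocytes came next in Gel50_CS50 with 1681 CPM, then plasmacytoid dendritic cells with 1110 CPM and stromal cells with 714 CPM. Stromal cells came next in Gel100 with 1683 CPM, then macrophages and monocytes with 1135 CPM and plasmacytoid dendritic cells with 919 CPM. T and NK cells (458 and 388 CPM) and conventional dendritic cells (458 and 313 CPM) were lower, with overlapping intervals in Gel50_CS50. Endothelial cells were lowest, at 40.8 CPM in Gel50_CS50 and 35.8 CPM in Gel100. With cells thinned to 3000 UMIs, 95.9% of neutrophils in Gel50_CS50 and 94.8% in Gel100 held a Cd44 count, as did 84.8% and 78.4% of macrophages and monocytes. Of the few endothelial cells with that many UMIs, 6.0% of 50 in Gel50_CS50 and 8.0% of 25 in Gel100 did so.

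Among neutrophil clusters, the Ngp Camp Ltf cluster of granule-forming cells had the least Cd44, at 1066 CPM in Gel50_CS50 and 855 CPM in Gel100. The Lcn2 Il1f9 Asprv1 cluster had 3805 and 3267 CPM, and the Cxcr2 G0s2 Il1r2 cluster 3650.3 and 3898 CPM. Among lymphocytes, Cd44 was higher in gamma-delta T cells (835 and 847.5 CPM) and in the Foxp3 cluster of regulatory type (911 and 927 CPM) than in conventional T cells (314 and 339 CPM) and NK cells (325 and 283 CPM).

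Macrophage clusters differed in Cd44 as well. The Cxcl10 Rsad2 Ifit2 cluster was highest with 2723 CPM in Gel50_CS50 and 2257 CPM in Gel100, followed by the Stfa3 Arg1 Cxcl3 cluster (2328 and 1928 CPM), the Chil3 Ccr2 F13a1 monocyte cluster (2073 and 2086 CPM) and the Cd5l Pf4 Mrc1 cluster (1583 and 1778 CPM). The Fcrls Cxcl13 C1qa cluster (1162 and 744 CPM), the Ifit1bl1 Slamf7 Ccl12 cluster (876.5 and 711 CPM) and the Gpnmb Syngr1 Apoe cluster (540.5 and 439.5 CPM) were lower. In the class as a whole the log2 ratio of Gel50_CS50 over Gel100 was 0.57 (0.55 to 0.58), a fold of 1.48, within 1.5-fold. It was 0.48 when each cell counted equally, 0.51 with thinned cells and 0.58 without the top 1% of cells. With cluster shares set equal between libraries it was 0.16. The clusters themselves ranged from -0.17 in the Cd5l Pf4 Mrc1 cluster to 0.64 in the Fcrls Cxcl13 C1qa cluster, and the low-Cd44 Ifit1bl1 Slamf7 Ccl12 cluster made up 5.86% of the class in Gel50_CS50 and 39.0% in Gel100.

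In stromal cells Cd44 differed the other way. It stood at 714 CPM in Gel50_CS50 (706 to 723) and 1683 CPM in Gel100 (1659 to 1708), a log2 ratio of -1.24 (-1.26 to -1.21), where 1.66% of the 6987 measured genes lay wholly below 1.5-fold. Both main stromal clusters showed it in summed counts. In the Col11a1 Eln Fmod cluster Cd44 stood at 257 CPM in Gel50_CS50 and 556 CPM in Gel100, a ratio of -1.11 (-1.18 to -1.05), where 2.35% of genes lay wholly below 1.5-fold. That ratio was -0.81 when each cell counted equally, -0.53 with thinned cells and -1.05 without the top 1% of cells. The median cell of this cluster had 69.5 CPM in Gel50_CS50 and 62.5 CPM in Gel100. After thinning, 30.8% and 33.3% of its cells held a Cd44 count. In the Clec3b Dpt Pi16 cluster Cd44 stood at 1166 CPM in Gel50_CS50 and 2563 CPM in Gel100, a ratio of -1.14 (-1.17 to -1.11), where 1.52% of genes lay wholly below 1.5-fold. There the ratio was -0.98 with equal weight of cells, -1.12 with thinned cells and -1.18 without the top 1% of cells. The class ratio was -1.05 when each cell counted equally, -1.10 with thinned cells and -1.32 without the top 1% of cells. Ptprc, the pan-leukocyte gene, had at least 1 count in 198 stromal cells of Gel50_CS50 and 92 of Gel100, and without those cells the Cd44 ratio was -1.56. All 11 macrophage markers had counts in stromal cells, summing to 563 CPM in Gel50_CS50 and 509 CPM in Gel100, against 15936.5 and 14495 CPM in macrophages and monocytes. The part of these transcripts in the stromal values was not tested.

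**Figure D5:**
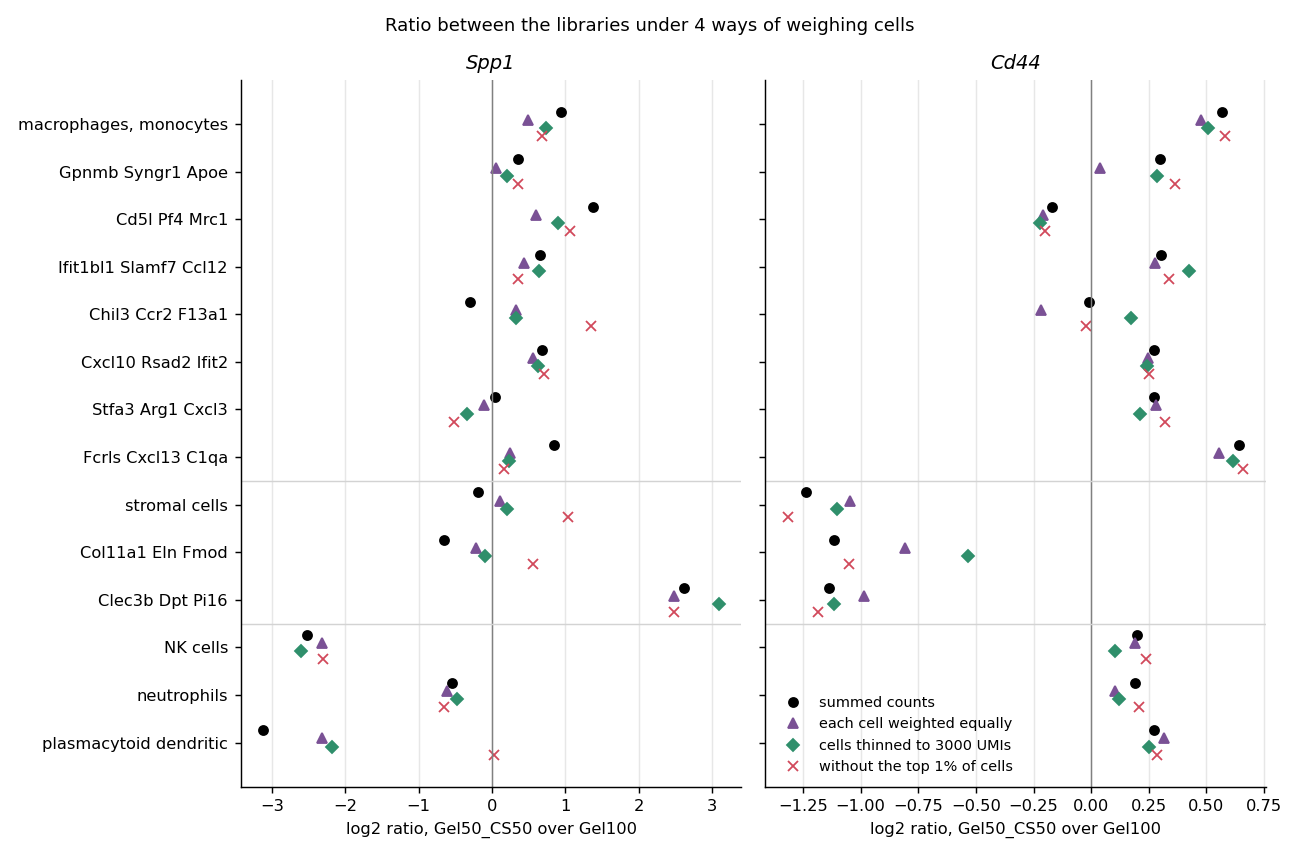
Log2 ratio of Gel50_CS50 over Gel100 for Spp1 (left) and Cd44 (right) in classes and clusters, by summed counts, by equal weight of cells, after thinning to 3000 UMIs and without the top 1% of cells. Stromal Cd44 lies below 0 in every version (-1.24 summed), while stromal Spp1 crosses 0 (-0.20 summed and 1.04 without the top 1%).

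Spp1 and Cd44 did not track each other across macrophages. Over the 7 clusters of both libraries (14 points) the Pearson correlation of log2(CPM + 1) was -0.52, and over the 7 classes (14 points) it was 0.39. Points from the same library share its depth, and these values are descriptions. Among single macrophages and monocytes thinned to 3000 UMIs the correlation was -0.10 in Gel50_CS50 and -0.05 in Gel100. Within single clusters it ran from -0.17 (Gpnmb Syngr1 Apoe, Gel100) to 0.10 (Stfa3 Arg1 Cxcl3, Gel100). Cells with at least 10 Spp1 counts after thinning (154 in Gel50_CS50 and 118 in Gel100) held a Cd44 count in 72.1% of cases in Gel50_CS50 (64.3 to 79.0%) and 68.6% in Gel100 (59.5 to 76.9%). Cells without an Spp1 count did so in 85.7% (84.2 to 87.1%) and 78.6% (76.9 to 80.2%). The share did not fall at every step: cells with 1 Spp1 count did so in 87.9% and 78.9%, and those with 2 to 9 in 81.0% and 79.6%. Mean Cd44 was 1208 CPM in Gel50_CS50 and 924 CPM in Gel100 in cells with at least 10 Spp1 counts, and 1796 and 1246 CPM in the cells without Spp1. It was 1836 and 1311 CPM in cells with 1 Spp1 count and 1509 and 1123 CPM in those with 2 to 9. From 1 count upward the mean thus fell at each step in both libraries.

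Genes whose levels were most like those of each member were ranked by the same correlation. Over the 7 classes, the nearest to Spp1 were Pkm (0.91), Eno1 (0.86), Pdpn (0.83), Pgk1 (0.83) and Pgd (0.83) among 4038 genes, of which Pkm, Eno1 and Pgk1 encode glycolytic enzymes. Nearest to Cd44 were Notch2 (0.92), Prr13 (0.89), Apbb1ip (0.87), Glipr1 (0.84) and Gm31718 (0.81). Over the 7 macrophage and monocyte clusters, Spp1 was most like Map1lc3b (0.93), Mgst1 (0.92), Scarb2 (0.89), Tcn2 (0.88) and Hnrnpll (0.88) among 3488 genes. Cd44 was most like Agpat4 (0.97), St3gal1 (0.96), Trib1 (0.96), Atp2b4 (0.96) and the matrix proteoglycan gene Vcan (0.96). Cell by cell within the class, the 10 genes most like Spp1 in both libraries were Trem2, Cd9, Fabp5, Ctsd, Cd63, Pde4d, Ctsl, Lgals3, Pld3 and Ctsa. Their correlations were weak, from 0.45 for the fatty acid carrier gene Fabp5 to 0.21 for the lysosomal protease gene Ctsa in Gel50_CS50, and 0.32 for the lipid receptor gene Trem2 to 0.20 for Ctsa in Gel100.

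The other genes around osteopontin and CD44 were read from a list of 51: integrin receptors, cleaving and modifying enzymes, related bone glycoproteins, hyaluronan enzymes and receptors, other CD44 ligands and partners, shedding proteases, cytoskeletal linkers and splicing regulators. In macrophages and monocytes 27 of the 51 were measured, 1 lay wholly above 1.5-fold and 1 wholly below, where 2.35% and 4.2% of all measured genes did. Their median log2 ratio was 0.15, against -0.02 over all 6096 genes. Vcan, the proteoglycan versican that binds hyaluronan and CD44, stood at 265.5 CPM in Gel50_CS50 and 129.96 CPM in Gel100, a ratio of 1.03 (0.99 to 1.07). Mmp12, a macrophage elastase that can cleave osteopontin, stood at 120 CPM in Gel50_CS50 and 189 CPM in Gel100 (-0.65).

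The 8 measured integrin subunits of osteopontin receptors lay within 1.5-fold in macrophages and monocytes, among them Itgb1 (433 CPM in Gel50_CS50 and 399 CPM in Gel100), Itgb2 (398 and 352 CPM) and Itga4 (228 and 219 CPM). So did Fam20c, the kinase that phosphorylates osteopontin (218 and 152 CPM), and Tgm2, the transglutaminase that crosslinks it (265 and 240 CPM). Stab1, another hyaluronan receptor, stood at 138 and 92.4 CPM (0.58), and Cemip2, a cell surface hyaluronan-degrading protein, at 55.2 and 43.2 CPM. Of the other CD44 partners, Srgn, the proteoglycan serglycin, stood at 1068 CPM in Gel50_CS50 and 917 CPM in Gel100, and Cd74, which pairs with CD44 as the receptor of MIF, at 823 and 729 CPM. Sheddases and linkers also lay within 1.5-fold: Adam17 had 458 CPM in Gel50_CS50 and 411 CPM in Gel100, Mmp14 375 and 441 CPM, and the membrane-to-actin linker Msn 591 and 543 CPM. The bone glycoprotein relatives Ibsp, Dmp1, Mepe and Dspp did not reach 20 CPM, nor did the splicing regulators Esrp1 and Esrp2.

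In stromal cells 25 of the 51 were measured, with a median log2 ratio of 0.00 against -0.02 over all measured genes. Mmp3, a matrix protease that cleaves osteopontin, lay wholly above 1.5-fold at 43.4 CPM in Gel50_CS50 and 24.4 CPM in Gel100 (0.83), as did Cd74 at 87.0 and 50.1 CPM (0.80), where 0.973% of all measured genes did. Itgb3, the subunit that pairs with Itgav in the classic osteopontin receptor, lay wholly below at 38.2 CPM in Gel50_CS50 and 69.5 CPM in Gel100 (-0.86), where 1.66% of all measured genes did. Itgav itself had 134 and 124 CPM. Among hyaluronan genes, Has1 had 135 CPM in both libraries, Has2 57.6 CPM in Gel50_CS50 and 73.1 CPM in Gel100, and Ugdh, which makes a hyaluronan precursor, 467 and 628 CPM. Tnfaip6, whose protein crosslinks hyaluronan, had 1289.9 CPM in Gel50_CS50 and 1697 CPM in Gel100 (-0.40). In NK cells 19 of the 51 were measured, 0 lay wholly above 1.5-fold, where 0.28% of all measured genes did, and 1 wholly below, where 1.03% did. That gene was Cd74, at 28.8 CPM in Gel50_CS50 and 87.5 CPM in Gel100 (-1.60). Macrophages and monocytes had 823 and 729 CPM of Cd74, and macrophage markers had counts in both stromal and NK cells. The part of macrophage transcripts in the stromal and NK values of Cd74 was not tested.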

How the data were processed

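Cells of 2 scaffold groups, 1 pooled library each, were sequenced with a 10x 3′ kit, per the labels' protocols. The authors deposited raw counts of UMIs per gene and cell barcode, and per the file headers Cell Ranger 6.0.2 made them; the submitters' processing notes name the build mm10. The annotation behind the counts was not stated. Of 32285 gene IDs, 99.6% were found in GENCODE vM21, which gave gene coordinates, and RefSeq (GRCm38.p6) gave the promoters of both genes.

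The matrices held 7515 barcodes and 150311308 UMIs for Gel50_CS50 and 7845 barcodes and 108847835 UMIs for Gel100. A filter (200 or more genes, 500 or more UMIs, mitochondrial share below 20%) removed 117 and 65 barcodes. Scrublet at an expected rate of 0.06 marked 192 (2.60%) and 210 (2.70%) doublets, which were left out. Counts scaled to 10000 per cell gave 3000 variable genes, 30 principal components and leidenalg clusters at resolution 1.0 (scanpy 1.11.5), both libraries together. A cluster took the class with the best marker score (mean log2 excess over the middle cluster), if that was at least 1.5, a lead of at least 0.5, at least 3 markers in at least 10% of cells and a median of at least 1000 UMIs. These limits were set after seeing the data. A difference from the study may come from rebuilt names. Clusters whose second class scored at least 4 were clustered again, save the smallest, as was the NK cluster.

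The members and lists were chosen with earlier results of these data known. Counts were summed per class and scaled to CPM, with exact Poisson intervals for levels, Clopper-Pearson intervals for shares and exact conditional binomial intervals for ratios, all at 95% and for counting error only. Ratios are Gel50_CS50 over Gel100. No test was run, since each group is 1 library. The code was tested on simulated data. A gene was counted beyond the fold when its whole interval lay past 1.5-fold. Genes named are both members, list genes averaging 20 CPM or more that passed 1.5-fold or were among the 3 highest of their role, the 5 genes most like each member over units with at least 30 cells in each library, averaging 50 CPM or more, and the 10 most like Spp1 over single macrophages and monocytes, with a count in at least 10% of cells in both libraries. The top cells of a class, the NK cells without C1q counts, the subclusters and the lymphocytes used for comparison were picked after their values were seen. Alternatives covered cell weights, depth, scaling, doublets, the mitochondrial limit, clustering, class membership, shared barcodes and thresholds.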

Additional observations from a re-analysis of the deposited data

Results flagged for a closer look

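3 pairs of results moved in opposite directions in different cells of the same libraries. The Cd44 log2 ratio of Gel50_CS50 over Gel100 was 0.57 in macrophages and monocytes and -1.24 in stromal cells. For Spp1 it was 0.94 in macrophages and monocytes and -2.52 in NK cells (leading genes Gzma, Ncr1 and Klre1). Between stromal clusters, Spp1 was 2.61 in the Clec3b Dpt Pi16 cluster and -0.66 in the Col11a1 Eln Fmod cluster, and the second of these turned to 0.55 without the top 1% of cells. With 1 library per scaffold, none of these differences was tested.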

How the results depend on the processing

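Without a replicate, a value counts as unmoved only within its counting interval. The log2 ratio of Spp1 in macrophages and monocytes (0.94) stayed above 0 in 14 of 14 alternatives, from 0.49 to 1.18. It was 0.49 with cells weighted equally, 0.73 thinned to 3000 UMIs, 1.18 with doublets kept, 0.90 with 50 principal components, 0.90 with the members and list genes kept for clustering, 0.64 with the same cluster weights, 0.97 without the Gpnmb Syngr1 Apoe cluster, which had the highest foreign-body-type score,, 0.90 with the Retnla Mgl2 H2-Eb1 cluster added and 0.69 without the top 1% of cells. Cd44 in that class (0.57) gave, in the same order, 0.48, 0.51, 0.38, 0.52, 0.51, 0.16, 0.61 and 0.49, with 0.58 under median-of-ratios scaling and 0.58 under a 10% mitochondrial limit, above 0 in 14 of 14. Spp1 in stromal cells (-0.20) reversed to 0.11 with equal weights, 0.20 thinned, 0.63 without Ptprc-positive cells and 1.04 without the top 1% of cells. It was -0.34 with the same cluster weights, and 9 of 13 alternatives kept its sign. The Gel100 stromal cell with 46.2% of that library's stromal Spp1 counts held 1 Ptprc count. Both of the last 2 reversals therefore leave it out, and without that cell alone the Gel100 level was 320 CPM. Cd44 in stromal cells (-1.24) stayed below 0 in 13 of 13, at -1.05, -1.10, -1.13, -1.56 and -1.32 for equal weights, thinning, cluster weights, Ptprc-positive cells left out and the top 1% left out. The count of list genes beyond the fold in macrophages and monocytes (2) was 6 with no minimum level and 0 beyond 2-fold, and in stromal cells (3) it was 0 among genes averaging 100 CPM or more and 0 beyond 2-fold. The alternatives without the top 1% of cells and with the added cluster were chosen after seeing the data. The cause of these shifts was not tested. No paired analysis was possible because each group is 1 pooled library. Depth limits the Gel100 library more, where 1625 cells under 3000 UMIs, against 325 in Gel50_CS50, drop out of the thinned values.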
